A study of Arabidopsis thaliana with 8 samples.

Results

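Transcript levels of 8 Arabidopsis thaliana genes are described here: the 6 plant defensin genes PDF1.1, PDF1.2a, PDF1.2b, PDF1.2c, PDF1.3 and PDF1.4, and the transcription factor genes ERF1 and ORA59. They were taken by locus tag from the 26987 gene entries of each expression table, and all 8 were found. The family was chosen from its FPKM (fragments per kilobase of transcript, scaled to the number of mapped fragments of the library) in these same 8 libraries, in which the PDF1.2 genes stood high in 1 library, so its levels and ratios are given as a description. Whole seedlings were sequenced, with 1 library per condition. DAYi seedlings carry an RNA interference construct against DAY (AT3G51140, a chaperone-like protein gene) that is switched on by dexamethasone (DEX), in the ecotype Col-0. They were grown on plates with 1 µM DEX or with ethanol (EtOH), in the light for 9 days or in the dark for 5 days. bri1-116, a null allele of the brassinosteroid receptor gene BRI1, and wild-type Col-0 were grown the same way on the EtOH medium. All plates held sucrose, and light was given in long days. No DEX-treated Col-0 library was analysed here, so an effect of DEX itself and of the construct cannot be told apart, nor can light and seedling age.

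Plant defensins are small secreted peptides, held together by disulphide bridges, that act against fungi. PDF1.2 is the usual marker of the defence branch that jasmonate and ethylene switch on together. In that branch ERF1 and ORA59, both of the AP2/ERF family, bind the GCC box in target promoters, while the MYC2 branch of jasmonate signalling drives wound-response genes such as VSP1 and restrains the defensin branch.

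Several libraries stand apart or go against their labels. In the light, DAY was at 6.88 FPKM in DAYi with DEX against 56.9 FPKM with EtOH, but in the dark it was at 34.8 FPKM in the library labelled DEX against 13.4 FPKM in that labelled EtOH. By titles, DAY was also higher in dark-grown bri1-116, at 32.8 FPKM, than in dark-grown Col-0, at 13.8 FPKM. Whether the dark DAYi labels are exchanged was not tested. BRI1 was lower in both bri1-116 libraries, with 33.3 FPKM in light-grown bri1-116 and 58.1 FPKM in light-grown Col-0, and with 42.5 FPKM in dark-grown bri1-116 and 70.6 FPKM in dark-grown Col-0. The titles and the genotype fields of the dark bri1-116 and Col-0 libraries name opposite genotypes; titles were followed. The titles of the DEX and EtOH libraries also carry different numbers with no meaning given; if these are separate transgenic lines, treatment and line cannot be told apart in any DEX over EtOH ratio. The word "new" opens the title of the light-grown bri1-116 library. RBCS1A and CAB1, the leaf photosynthesis markers, summed to 8271 FPKM in DAYi with DEX and 40501 FPKM with EtOH in the light, and PORA, a marker of dark growth, was over 60 FPKM in each dark library and under 2 FPKM in each light library. In the dark PORA was at 62.8 FPKM under the DEX label and 487.9 FPKM under the EtOH label. Dark-grown Col-0 held 402.3 FPKM of it and dark-grown bri1-116 held 1586 FPKM. The 6 root markers were each within 2-fold between DEX and EtOH in the light; their sum, 3687 FPKM with DEX and 3292 FPKM with EtOH, is nearly all PYK10, and SCR and SHR were lower with DEX. Because each value is the mean of whole seedlings, fewer cells of a type and less RNA per cell cannot be told apart.

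The 4 defensin genes, PDF1.2a, PDF1.2b, PDF1.2c and PDF1.3, are close copies that sit in tandem pairs. PDF1.2a (AT5G44420) lies on chromosome 5 from 17906968 to 17907638 on the minus strand in the RefSeq annotation of TAIR10.1, and PDF1.2c (AT5G44430) from 17908850 to 17909507 on the same strand, 1211 bases away. PDF1.3 (AT2G26010) lies on chromosome 2 from 11087280 to 11088001 on the plus strand, 1121 bases from PDF1.2b (AT2G26020), which runs from 11089123 to 11089805. No protein-coding gene lies between the members of either pair. Each copy has 2 exons and a coding sequence of 243 bases, and 27 coding positions differ among the 4. Their coding sequences are printed from the RefSeq genome with those 27 positions in capitals, since reads from the coding part can be told apart only where they cover such a position.
PDF1.2a coding: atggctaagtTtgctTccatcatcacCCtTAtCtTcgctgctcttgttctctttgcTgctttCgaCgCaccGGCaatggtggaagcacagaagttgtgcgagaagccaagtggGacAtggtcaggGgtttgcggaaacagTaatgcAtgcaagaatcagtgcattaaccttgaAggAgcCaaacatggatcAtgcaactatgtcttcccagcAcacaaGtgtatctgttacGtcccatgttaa
PDF1.2b coding: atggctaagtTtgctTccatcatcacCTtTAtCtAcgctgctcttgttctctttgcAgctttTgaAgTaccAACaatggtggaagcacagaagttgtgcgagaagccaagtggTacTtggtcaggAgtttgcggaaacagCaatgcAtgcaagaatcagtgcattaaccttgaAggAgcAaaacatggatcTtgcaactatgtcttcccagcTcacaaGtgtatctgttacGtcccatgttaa
PDF1.2c coding: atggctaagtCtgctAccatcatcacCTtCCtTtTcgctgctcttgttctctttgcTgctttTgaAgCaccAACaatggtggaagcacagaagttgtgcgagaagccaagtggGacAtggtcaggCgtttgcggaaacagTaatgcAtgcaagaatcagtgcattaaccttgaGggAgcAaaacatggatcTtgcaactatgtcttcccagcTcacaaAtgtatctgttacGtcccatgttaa
PDF1.3 coding: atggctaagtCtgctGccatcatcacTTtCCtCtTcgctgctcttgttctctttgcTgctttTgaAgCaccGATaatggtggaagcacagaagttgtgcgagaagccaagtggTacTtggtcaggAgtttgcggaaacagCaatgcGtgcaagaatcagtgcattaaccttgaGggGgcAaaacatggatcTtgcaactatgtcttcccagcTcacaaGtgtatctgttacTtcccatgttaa
The differences crowd at the 5′ end, with 15 of the 27 in the first 81 bases, 5 in the next 81 and 7 in the last 81. Identity over the coding sequence was 91.4 to 94.7% between any pair of the 4. PDF1.1 (AT1G75830, chromosome 1) was 87.2 to 90.5% identical to them and PDF1.4 (AT1G19610, chromosome 1) 56.7 to 58.6%. With 2 mismatches allowed, 26.3 to 36.4% of the 50-base windows of the 4 transcripts matched another PDF1 gene, against 6.48% for PDF1.1 and 0% for PDF1.4. At 75 bases the share was 6.53 to 18.1% for the 4 copies, and with no mismatch it was 0%. The longest stretch that 2 of the transcripts share is 72 bases, in PDF1.2b and PDF1.3. How reads that fit several copies were divided is not given in the sources used here, so the level of each copy is uncertain, and their sum is given beside them. The model of PDF1.2b in the deposited tables spans 348 bases and covers 274 of the 609 exon bases of the RefSeq transcript, the least of the 6 defensin genes, so its FPKM rests on a short stretch.

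Upstream sequence was read for the 250 bases before each annotated gene start, because ERF1 and ORA59 bind the GCC box. The core GCCGCC, searched on both strands from 250 bases before to 50 bases after the start, occurs in 2.57% of 27443 protein-coding genes. It was found once each in PDF1.2a, PDF1.2b and ORA59, and not in this window of the other 5 genes. The 4 close copies and ORA59 are printed 5′ to 3′ along the gene, with the core in capitals where it is present.
PDF1.2a upstream, chr5:17907639-17907888, TAIR10.1, minus strand: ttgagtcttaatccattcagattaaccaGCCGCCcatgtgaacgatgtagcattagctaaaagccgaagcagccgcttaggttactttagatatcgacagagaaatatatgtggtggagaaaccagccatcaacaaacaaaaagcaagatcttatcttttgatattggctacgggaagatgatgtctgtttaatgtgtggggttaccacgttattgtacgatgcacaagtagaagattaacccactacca
PDF1.2b upstream, chr2:11088873-11089122, TAIR10.1, plus strand: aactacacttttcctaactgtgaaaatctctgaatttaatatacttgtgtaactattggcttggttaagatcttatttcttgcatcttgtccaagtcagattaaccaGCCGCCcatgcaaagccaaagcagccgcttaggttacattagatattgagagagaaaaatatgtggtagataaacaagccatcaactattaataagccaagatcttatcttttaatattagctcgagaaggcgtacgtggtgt
PDF1.2c upstream, chr5:17909508-17909757, TAIR10.1, minus strand: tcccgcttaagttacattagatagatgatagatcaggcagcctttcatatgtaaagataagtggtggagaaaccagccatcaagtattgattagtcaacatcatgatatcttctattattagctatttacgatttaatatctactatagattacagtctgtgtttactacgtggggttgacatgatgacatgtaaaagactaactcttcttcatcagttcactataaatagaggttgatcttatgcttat
PDF1.3 upstream, chr2:11087030-11087279, TAIR10.1, plus strand: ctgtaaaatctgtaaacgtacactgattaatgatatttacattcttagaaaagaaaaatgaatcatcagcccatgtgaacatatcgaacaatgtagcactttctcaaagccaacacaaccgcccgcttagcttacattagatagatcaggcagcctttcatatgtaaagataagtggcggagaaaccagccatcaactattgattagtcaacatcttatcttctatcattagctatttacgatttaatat
ORA59 upstream, chr1:1882657-1882906, TAIR10.1, plus strand: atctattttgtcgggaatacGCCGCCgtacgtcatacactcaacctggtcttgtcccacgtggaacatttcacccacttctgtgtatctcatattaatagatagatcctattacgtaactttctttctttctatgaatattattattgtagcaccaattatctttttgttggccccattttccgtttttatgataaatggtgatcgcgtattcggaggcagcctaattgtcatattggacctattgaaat
Counted from the annotated gene start, the core begins at -222 in PDF1.2a, at -143 in PDF1.2b and at -230 in ORA59. Counted from the start codon, it begins at -310 in PDF1.2a and at -301 in PDF1.2b. The longest stretch shared by the upstream windows of PDF1.2a and PDF1.2b is 22 bases, and that of PDF1.2c and PDF1.3 is 38 bases, the longest of all pairs of the 8 genes. In a wider window of 1000 bases upstream, which holds the core in 8.44% of genes, the same 3 genes had 1 match each and the other 5 had none. The G-box CACGTG, the element of MYC2, is its own reverse complement and occurs in 7.68% of the 300-base windows. Among the 8 genes it was found once, at -194 from the start of ORA59. A match is a description of letters and not evidence of binding.

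**Figure D1:**
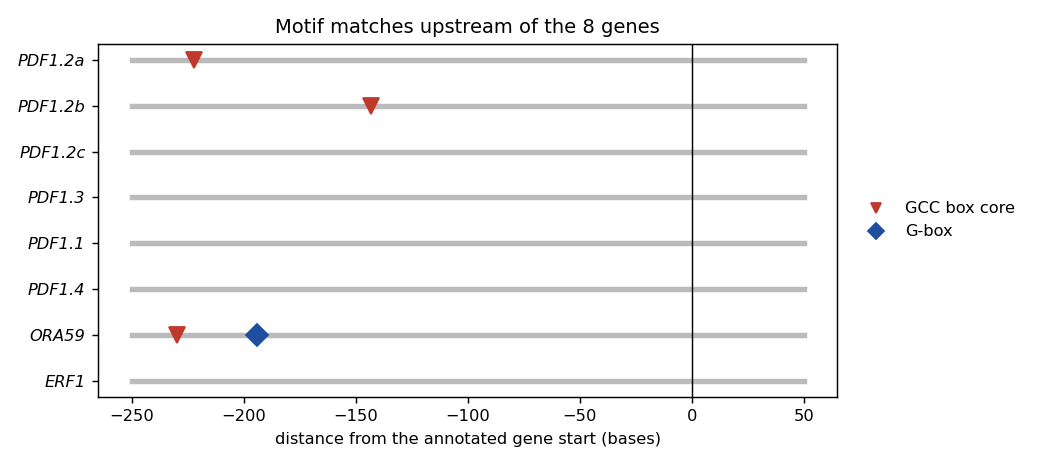
Positions of GCCGCC (GCC box core, triangles) and CACGTG (G-box, diamonds) around the annotated start of each of the 8 genes, in bases, with the window searched as a grey line. PDF1.2a, PDF1.2b and ORA59 each hold 1 GCC box core, and ORA59 also holds the 1 G-box.

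The 4 close copies were abundant in 1 library of the 8, light-grown DAYi with DEX. PDF1.2a was at 626.6 FPKM there, against 1.74 FPKM in DAYi with EtOH. In the other light libraries it was at 0.696 FPKM in bri1-116 and 0.589 FPKM in Col-0, and it was listed at 0 in all 4 dark libraries. PDF1.2a thus stood at rank 149 of the 22770 entries above 0 in the DEX library and at rank 17820 of 22597 in the EtOH library. The ratio was 359.7-fold, the 5th highest of the 22021 entries above 0 in both. PDF1.3 was the most abundant copy in every light library, at 881.3 FPKM in DAYi with DEX and 3.93 FPKM with EtOH, a 224.5-fold ratio. Light-grown bri1-116 held 4.47 FPKM and light-grown Col-0 held 6.72 FPKM, and PDF1.3 too was listed at 0 throughout the dark. The light DEX library thus stands far above the other 7 for both copies, and the remaining light libraries stay within a few FPKM of each other.

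PDF1.2c was at 125.3 FPKM in light-grown DAYi with DEX and listed at 0 with EtOH, so no fold is given. It was at 0.0755 FPKM in bri1-116 and 0.165 FPKM in Col-0 in the light. PDF1.2b was at 39.1 FPKM with DEX and 0.277 FPKM with EtOH, a 141.2-fold ratio on a low denominator. It was at 1.23 FPKM in bri1-116 and listed at 0 in Col-0, and both copies were listed at 0 in each dark library. Like the more abundant copies, both were highest in the light DEX library.

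Summed over the 4 copies, the level was 1672.3 FPKM in light DAYi with DEX and 5.94 FPKM with EtOH, a 281.3-fold ratio. It was 6.46 FPKM in bri1-116 and 7.47 FPKM in Col-0, a ratio of 0.866. The make-up of the sum differed: PDF1.2a held 37.5% of it with DEX and 29.3% with EtOH, but 10.8% in bri1-116 and 7.88% in Col-0. PDF1.3 held 52.7% with DEX and 66.0% with EtOH, 69.1% in bri1-116 and 89.9% in Col-0. The last 3 sums are of a few FPKM each, and no fragment counts were estimated for these short genes. Leaf and seed markers differed in the same comparison, with the leaf markers as given above and the 4 seed markers at a sum of 6.84 FPKM with DEX against 0.0989 FPKM with EtOH. Their part in the defensin levels was not tested.

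**Figure D2:**
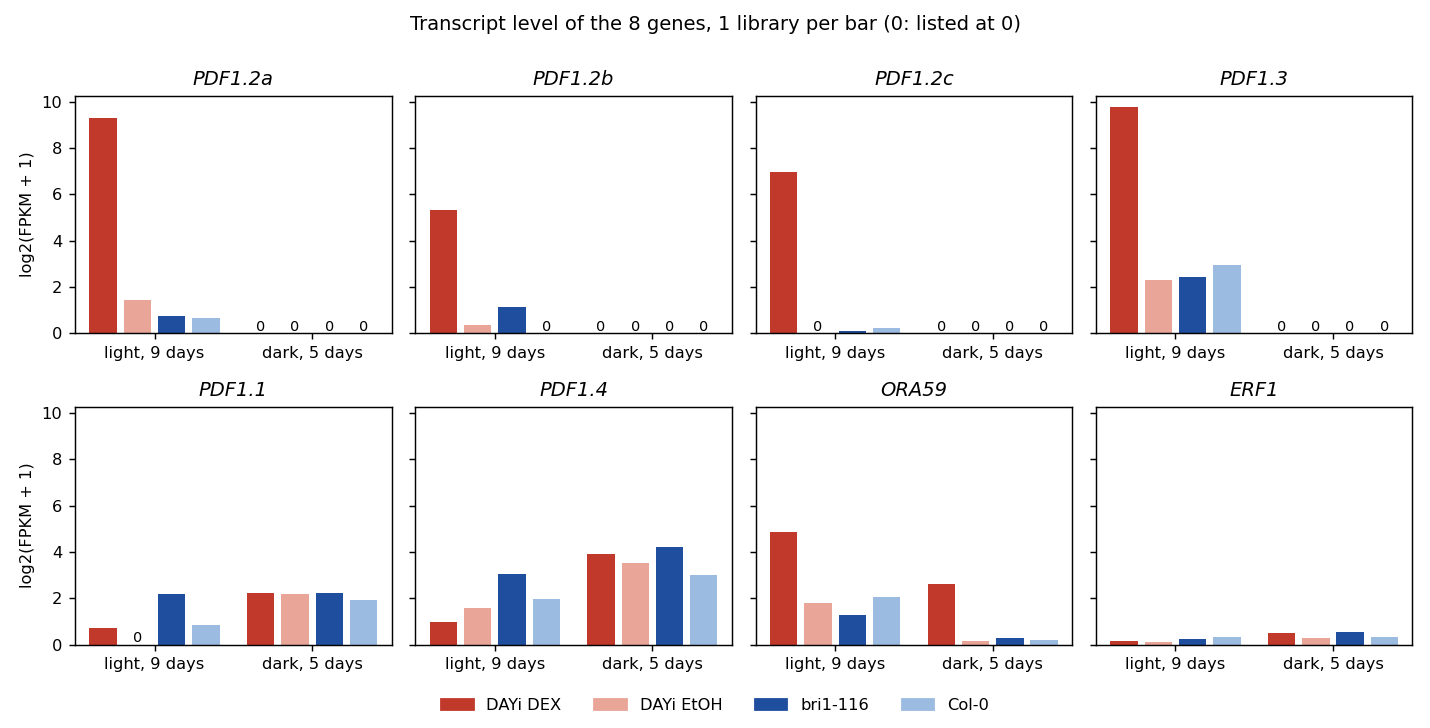
Level of each gene as log2(FPKM + 1) in the 8 libraries, 1 bar per library, light left and dark right, with 0 over libraries that list the gene at 0. PDF1.2a, PDF1.2b, PDF1.2c and PDF1.3 are high in the light DAYi DEX library alone, ORA59 is higher in the libraries labelled DEX than in those labelled EtOH in light and dark, with DAY against that label in the dark, and PDF1.4 is higher in the dark than in the light.

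PDF1.1 and PDF1.4 did not share this pattern. PDF1.1, known from seeds, was at 0.634 FPKM in light DAYi with DEX and listed at 0 with EtOH. Light-grown bri1-116 held 3.53 FPKM and light-grown Col-0 held 0.817 FPKM, a 4.33-fold ratio. In the dark it was at 3.62 FPKM in the library labelled DEX, 3.61 FPKM with EtOH, 3.68 FPKM in bri1-116 and 2.79 FPKM in Col-0, the narrowest range of the genes detected there when taken as a ratio of highest to lowest. The seed markers CRA1, CRU3, SESA3 and OLE1 summed to 0.108 FPKM in bri1-116 and 0.116 FPKM in Col-0 in the light. These sums are near the floor, with CRU3 and SESA3 listed at 0 in both. In light DAYi the sum was 6.84 FPKM with DEX and 0.0989 FPKM with EtOH. The part of seed tissue in the PDF1.1 levels was not tested.

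PDF1.4, the most diverged member, was the gene of the family with the highest dark levels. Dark-grown bri1-116 held 17.5 FPKM and dark-grown Col-0 held 7.05 FPKM. Light-grown bri1-116 held 7.28 FPKM and light-grown Col-0 held 2.91 FPKM. The ratios were 2.49-fold and 2.5-fold, so PDF1.4 was more than 2-fold higher in bri1-116 under both conditions; exchanging the dark labels would turn the dark ratio round. In dark-grown DAYi the library labelled DEX held 14.1 FPKM and that labelled EtOH 10.3 FPKM. In the light the order was the opposite, at 0.969 FPKM with DEX against 1.96 FPKM with EtOH, 2.02-fold lower and just past the limit. With 1 library each, neither difference has a replicate check.

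ORA59 (AT1G06160, chromosome 1 from 1882907 to 1883992 on the plus strand, 1 exon) was higher in the library labelled DEX under both conditions, although DAY goes against that label in the dark. In the light it was at 28.5 FPKM with DEX and 2.52 FPKM with EtOH, an 11.3-fold ratio. In the dark it was at 5.06 FPKM in the library labelled DEX and 0.124 FPKM in that labelled EtOH, a 40.8-fold ratio at rank 51 of 22257 entries. The dark DEX level of ORA59 was above its levels in the light libraries of DAYi with EtOH, bri1-116 and Col-0. In those light libraries PDF1.2a and PDF1.3 were detected, and in the dark DEX library all 4 close copies were listed at 0. Light, age and possibly scaling differ between these libraries, and a relation of ORA59 to the defensin levels was not tested. Estimated fragments were 1420 with DEX and 102 with EtOH in the light, and 317 and 10 in the dark. In the same dark pair 2 of the 6 root markers were also more than 2-fold higher in the library labelled DEX, EXPA7 at 11.1 against 0.873 FPKM and COBL9 at 2.71 against 0.298 FPKM, while 2 were lower, and the 6 summed to 667 against 3188 FPKM, mostly PYK10. Both leaf markers were lower there, with a sum of 1316 FPKM under the DEX label and 4830 FPKM under the EtOH label. The part of these tissue differences in the ORA59 ratio was not tested. The exact 95% intervals of the ORA59 ratios, which cover counting error of these estimates only, were 9.24 to 14.0 in the light and 21.5 to 84.4 in the dark. In the bri1-116 comparisons ORA59 was low throughout. Light-grown bri1-116 held 1.41 FPKM and light-grown Col-0 held 3.21 FPKM, a ratio of 0.439 with an interval of 0.334 to 0.582. Dark-grown bri1-116 held 0.231 FPKM and dark-grown Col-0 held 0.132 FPKM, a ratio of 1.75 with an interval of 0.657 to 5.32, so no difference was detectable at this depth.

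ERF1 (AT3G23240, chromosome 3 from 8295617 to 8296604 on the plus strand, 1 exon) was scarce in every library. Its light levels were 0.126 FPKM in DAYi with DEX, 0.0827 FPKM with EtOH, 0.165 FPKM in bri1-116 and 0.261 FPKM in Col-0. In the dark it was at 0.422 FPKM in the library labelled DEX, 0.226 FPKM with EtOH, 0.461 FPKM in bri1-116 and 0.253 FPKM in Col-0. These levels are some 3 to 36 estimated fragments per library, and each of the 4 ratios lay within 2-fold. Their exact intervals were 0.347 to 10 for DEX over EtOH in the light and 0.963 to 3.54 in the dark, and 0.238 to 1.66 for bri1-116 over Col-0 in the light and 0.879 to 3.65 in the dark. Every one of these intervals includes 1, which does not show that the levels were equal. The library with the highest defensin sum was also the one with the highest ORA59. The order of the libraries by ERF1 is not resolved at so few fragments. Whether either factor had a part in the defensin levels was not tested.

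**Figure D3:**
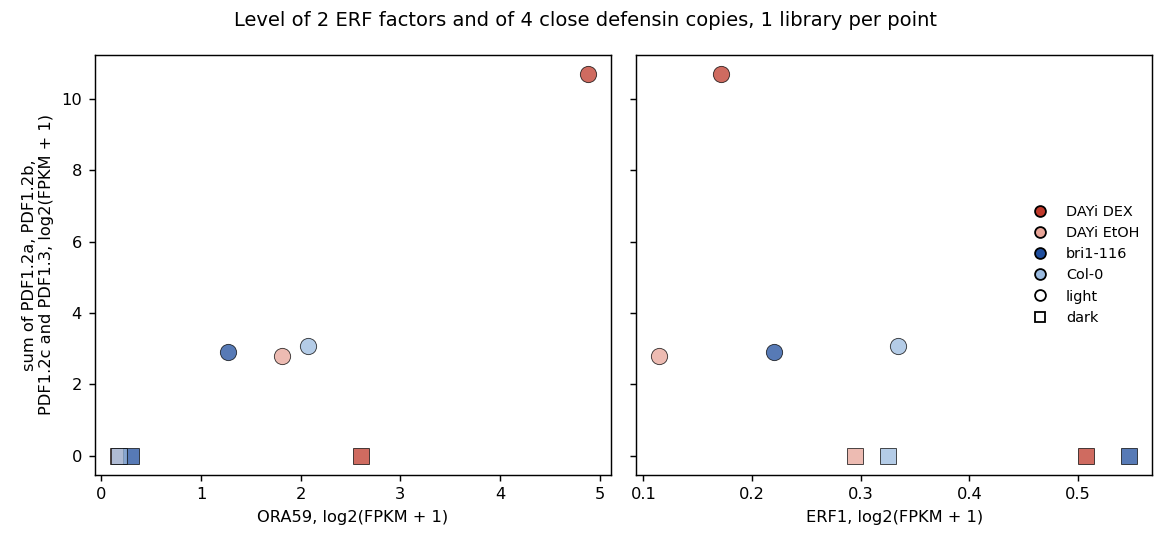
Summed level of PDF1.2a, PDF1.2b, PDF1.2c and PDF1.3 against that of ORA59 (left) and of ERF1 (right), as log2(FPKM + 1), 1 point per library, circles for light and squares for dark. The light DAYi DEX library is at the top with the highest ORA59, the dark library labelled DEX has the next highest ORA59 with a defensin sum of 0, and ERF1 spans under 0.5 FPKM in all.

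Counted as more than 2-fold apart with FPKM above 0 in both libraries, 4 of the 8 genes were higher and 1 lower with DEX in the light. Among all entries above 0 in both, 12.1% were higher and 16.3% lower by this rule. PDF1.2c and PDF1.1 could not be called, since both are listed at 0 with EtOH, and ERF1 was within 2-fold. In the dark, 1 gene, ORA59, was higher in the library labelled DEX, where 9.36% of all entries were higher and 12.2% lower; 3 genes were within 2-fold and 4 listed at 0 in both. In bri1-116 against Col-0, 2 genes were higher, PDF1.1 and PDF1.4, and 2 lower, PDF1.2c and ORA59, in the light, against 6.52% and 7.82% of all entries. The PDF1.2c call there is between 2 levels under 0.2 FPKM. In the dark 1 was higher, PDF1.4, against 11.2% of entries higher and 9.01% lower. On the scale of log2((FPKM + 1)/(FPKM + 1)), the median over all 8 genes was 4.02 for DEX over EtOH in the light and 0.32 in the dark, and -0.01 and 0.26 for bri1-116 over Col-0. The medians over all entries were 0.02, -0.00, -0.01 and -0.01 in the same comparisons. As these contrasts chose the genes, nothing is read from the counts.

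The 2 control materials, DAYi with EtOH and Col-0, were also compared, as 1 pair of libraries in each condition. In the light 1 of the 8 genes was more than 2-fold higher in DAYi with EtOH, PDF1.2a, and 1 lower, ERF1, against 1.96% and 2.18% of all entries. The ERF1 call is near the floor, at 0.0827 FPKM in DAYi with EtOH and 0.261 FPKM in Col-0. These levels stand for 3.35 and 8.88 estimated fragments. In the dark none of the 8 was more than 2-fold apart, against 2.19% higher and 2.22% lower, with 4 genes listed at 0 in both. PDF1.2a was at 1.74 FPKM in DAYi with EtOH and 0.589 FPKM in Col-0 in the light. The medians of the log2 ratios over the 8 genes were -0.24 in the light and 0.14 in the dark.

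**Figure D4:**
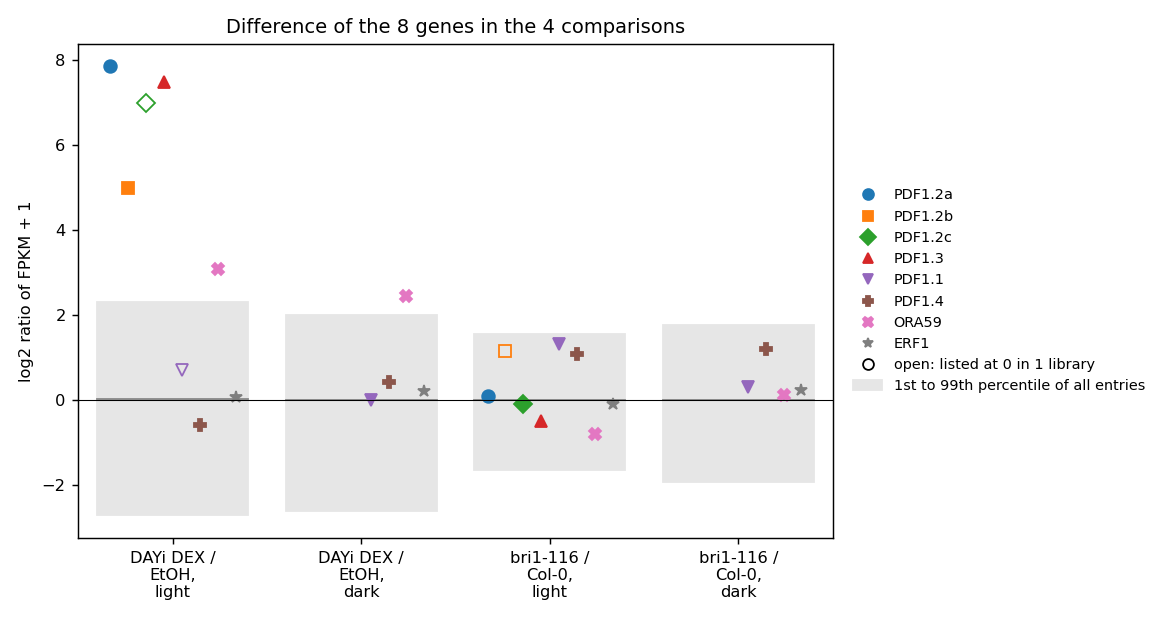
Log2 ratio of FPKM + 1 of the 8 genes in each comparison, with open symbols where a gene is listed at 0 in 1 library, genes listed at 0 in both left out, and the 1st to 99th percentile of all entries above 0 in at least 1 library as a grey box. In light DAYi the 4 close copies and ORA59 lie above the box, at 4.97 to 7.84 and 3.07; in dark DAYi ORA59 does, at 2.43; no gene leaves the box in bri1-116.

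Light and dark libraries of the same material differed in opposite directions among the genes, with age differing along with light. ORA59 was higher in the light in all 4 materials, 5.62-fold in DAYi with DEX, 20.3-fold with EtOH, 6.12-fold in bri1-116 and 24.4-fold in Col-0. PDF1.4 ran the other way, 14.6-fold higher in the dark in the DEX libraries, 5.29-fold with EtOH, 2.41-fold in bri1-116 and 2.43-fold in Col-0. PDF1.1 was 5.72-fold higher in the dark in the DEX libraries and 3.42-fold in Col-0, while in bri1-116 it was at 3.53 FPKM in the light and 3.68 FPKM in the dark. ERF1 was 2.74 to 3.35-fold higher in the dark in 3 materials and 1.03-fold higher in the light in Col-0. These ERF1 ratios rest on 3.35 to 36.4 estimated fragments per library.

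Among the other outputs of the jasmonate and ethylene branch, HEL/PR4, a chitin-binding protein gene, was at 1051 FPKM in light DAYi with DEX and 94.4 FPKM with EtOH. OSM34, an osmotin gene, was at 239.8 and 44.3 FPKM, and the basic chitinase gene CHI-B, named after its values were seen, at 111.5 and 26.4 FPKM. These 3 of the 4 genes on the list were more than 2-fold higher, against 12.1% of all entries, and the remaining one, THI2.1, was listed at 0 in both. None of the 4 was more than 2-fold apart in the other 3 comparisons. Unlike the close PDF1 copies, HEL/PR4, OSM34 and CHI-B had dark levels above 90 FPKM in every library, as HEL/PR4 with 308.8 FPKM in the library labelled DEX and 241.9 FPKM with EtOH.

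The other defensin genes did not follow the 4 close copies. Of 7, none was more than 2-fold higher with DEX in the light and 3 were lower, where 12.1% of all entries were higher and 16.3% lower, and PDF2.4 and PDF2.6 were listed at 0 in both libraries. PDF1.5 was at 0.771 FPKM with DEX and 40.6 FPKM with EtOH in light-grown DAYi, and at 0.162 and 1.26 FPKM in the dark libraries labelled DEX and EtOH. PDF2.3 was at 126.2 FPKM with DEX and 464.3 FPKM with EtOH in the light, and at 24.9 and 522.3 FPKM in the dark libraries labelled DEX and EtOH. These genes were thus lower under the DEX label in both conditions. PDF2.1 was at 2.44 FPKM with DEX and 6.38 FPKM with EtOH in the light, but at 10.6 and 0.694 FPKM in the dark libraries so labelled. PDF1.5 also differed in direction between conditions in bri1-116, with 41.8 FPKM in dark-grown bri1-116 and 1.69 FPKM in dark-grown Col-0, and with 21.0 FPKM in light-grown bri1-116 and 58.4 FPKM in light-grown Col-0. PDF2.2 was at 676.2 FPKM with DEX and 398.0 FPKM with EtOH in the light, within 2-fold.

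Of 13 other ERF genes, 2 were more than 2-fold higher and 1 lower with DEX in the light, and 2 higher and none lower in the dark. Of all entries, 12.1% were higher and 16.3% lower in the light, and 9.36% and 12.2% in the dark. ERF15, an activator of the same ERF group, was at 34.5 FPKM with DEX and 9.67 FPKM with EtOH in the light, and at 5.04 and 0.933 FPKM in the dark libraries labelled DEX and EtOH; it was named after its values were seen. Light-grown bri1-116 held 6.70 FPKM of it and light-grown Col-0 13.4 FPKM, and dark-grown bri1-116 held 0.576 FPKM and dark-grown Col-0 0.814 FPKM. ERF15, picked by its values, ran in the order of ORA59 in both DAYi comparisons and in the light bri1-116 one. In the dark bri1-116 one the direction of ORA59 is not resolved, at 18 and 6 estimated fragments. ERF2 and ERF98 were likewise named after their values were seen. ERF2, also higher in the dark, was at 5.65 and 1.38 FPKM there, but at 5.41 FPKM with DEX and 6.14 FPKM with EtOH in the light. The lower gene in the light, ERF98, was near the floor at 0.121 FPKM with DEX and 0.375 FPKM with EtOH. The most abundant members, ERF3, a repressor, and ERF1A, were within 2-fold in all 4 comparisons, ERF3 at 74.2 FPKM with DEX and 42.1 FPKM with EtOH in the light.

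All 11 ethylene signalling genes were within 2-fold in both DAYi comparisons and in dark bri1-116, and 1 was lower in light bri1-116. Of all entries, 12.1% were higher and 16.3% lower in light DAYi, and 9.36% and 12.2% in dark DAYi. In bri1-116 against Col-0 the shares were 6.52% and 7.82% in the light, and 11.2% and 9.01% in the dark. EIN3, the factor that switches on ERF1, was at 71.4 FPKM with DEX and 56.2 FPKM with EtOH in the light, and at 159.3 and 130.5 FPKM in the dark libraries labelled DEX and EtOH. EBF2, whose product removes EIN3, was at 66.4 FPKM with DEX and 72.1 FPKM with EtOH in the light. In the jasmonate list, 4 of 9 genes were more than 2-fold lower with DEX in the light, against 16.3% of all entries, and none higher. AOS, an enzyme of jasmonate synthesis, was at 33 FPKM with DEX and 82.7 FPKM with EtOH. VSP1, the wound-response output, was at 1.16 FPKM with DEX and 16.3 FPKM with EtOH, and the jasmonate synthesis gene LOX2 at 9.54 and 30.8 FPKM, both named after their values were seen, as was MYC2. MYC2 itself was at 16.9 FPKM with DEX and 13.9 FPKM with EtOH in the light, and at 11.8 and 40.2 FPKM in the dark libraries labelled DEX and EtOH. MYC3, a close relative, was at 32.9 FPKM with DEX and 27.5 FPKM with EtOH in the light. In the dark 2 of the 9 were lower, against 12.2% of all entries, and none higher. In bri1-116 against Col-0, 2 were lower in the light, against 7.82% of all entries, and none higher. These were AOS, at 34.5 FPKM in light-grown bri1-116 and 102.2 FPKM in light-grown Col-0, and VSP1, at 11.7 and 23.8 FPKM. In the dark 1 was lower and 1 higher, against 9.01% and 11.2%. The higher one was LOX2, at 0.291 FPKM in dark-grown bri1-116 and 0.0982 FPKM in dark-grown Col-0, both near the floor.

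In the salicylate list, none of 5 genes was more than 2-fold higher with DEX in the light and 3 were lower, where 16.3% of all entries were lower. In the dark 2, PR1 and PR5, were higher at levels under 0.2 FPKM, where 9.36% of all entries were. WRKY70 was at 2.47 FPKM with DEX and 5.64 FPKM with EtOH in the light, and PR1 and PR2, named like PDF2.4, PDF2.6, THI2.1 and TGA6 only to complete a list once the values were seen, were under 0.3 FPKM in both. NPR1, a salicylate receptor, was at 16.3 FPKM with DEX and 13.3 FPKM with EtOH, and PR5 was at 20.4 FPKM with DEX and 15.6 FPKM with EtOH. The 3 TGA class II factors, TGA2, TGA5 and TGA6, which take part in both the salicylate and the jasmonate and ethylene branches, were within 2-fold in all 4 comparisons, TGA5 at 24.3 FPKM with DEX and 13.9 FPKM with EtOH in the light.

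**Figure D5:**
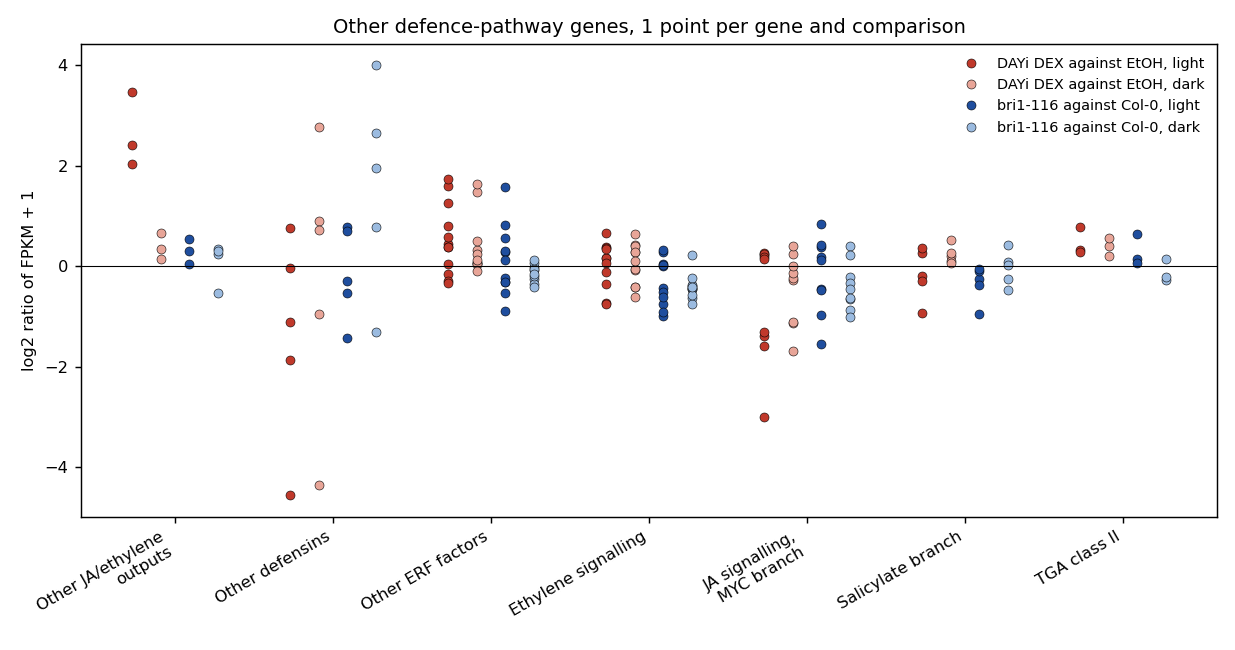
Log2 ratio of FPKM + 1 of genes outside the family, 1 point per gene above 0 in at least 1 library of the comparison, by list and in 4 colours for the 4 comparisons. Outputs of the jasmonate and ethylene branch lie above 2 in light DAYi and under 1 elsewhere, ethylene signalling genes stay between -1 and 1, and the lowest points of the jasmonate list in light DAYi are those of VSP1, LOX2, VSP2 and AOS.

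Over the 8 libraries, the entries nearest in profile to PDF1.2a were sought outside the 8 genes themselves, among 14459 entries of at least 10 FPKM in at least 1 library, by the root mean square distance of centred log2(FPKM + 1). The nearest 5 were BOR5, SAG29, UF3GT, DFR and an entry that joins PAP1 with 2 other loci, at distances of 1.33 to 1.65 log2 units. SAG29, a senescence-associated sugar transporter gene, was at 454.0 FPKM with DEX and 14.3 FPKM with EtOH in the light, and at 1.4 and 0.183 FPKM in the dark libraries labelled DEX and EtOH. The listed markers of senescent tissue, SAG12 and SAG13, did not share this difference in the light. SAG12 was listed at 0 in both libraries, and SAG13 was at 1.92 FPKM with DEX and 1.23 FPKM with EtOH, within 2-fold. BOR5 was at 54.9 FPKM with DEX and 2.31 FPKM with EtOH in the light. The anthocyanin synthesis gene DFR was at 169.3 FPKM with DEX and 13 FPKM with EtOH and listed at 0 in all dark libraries, but light-grown bri1-116 held 0.141 FPKM and light-grown Col-0 20.2 FPKM of it.

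The nearest 5 to ORA59 were AT1G54575, AT1G31550, CYP71A27, AT4G00670 and AT5G18840, at 0.22 to 0.43 log2 units. AT1G54575 was at 244.7 FPKM with DEX and 42.9 FPKM with EtOH in the light, and at 78.8 and 13.2 FPKM in the dark libraries labelled DEX and EtOH. None of these 5 was among the nearest when a pseudocount of 5 was used, against 4 of the 5 for PDF1.2a.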

How the data were processed

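The authors prepared stranded mRNA libraries of whole seedlings (Illumina NextSeq500), with base calls by CASAVA 1.8.2, alignment by TopHat2 2.0.13 to the TAIR10 genome and FPKM by Cuffdiff 2.2.0, as the methods and the submitters' processing notes state. The deposited tables, 1 per comparison, give the authors' FPKM per gene and library. Their fold change, p-value and q-value columns hold the authors' own comparisons and were not used. Whether the 4 tables were scaled together is not given in the sources used here, so levels set across tables, such as light beside dark, may carry a difference in scaling.

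Groups follow GEO titles. With 1 library per condition no test was run and no error can be given. Genes were called apart at more than 2-fold in FPKM, above 0 in both libraries, and log2 ratios used a pseudocount of 1, which understates differences of low genes. The 8 genes and the other lists were chosen with earlier results of these data known. From each other list, the 2 genes of highest level and any gene beyond 4-fold in at least 2 comparisons are named, and the text marks those added after their values were seen. Depth was estimated because the tables used here hold no fragment numbers. Steps between low FPKM values were sought in 558 single-exon genes, of which 57 to 88 values per library were scored. Of these scored values, 58.8 to 75.4% were whole within tolerance. The step was the best of many tried, which raises these shares. At that step 1 FPKM stands for 34.1 to 79.0 fragments per library at the length of ORA59 or ERF1. These settings were set with the values in view, and the fragments of ORA59 and ERF1 are such estimates. Calls, profile distances and depth steps were tested on simulated data. Sequences are from RefSeq TAIR10.1. Python 3.11.15, pandas 2.3.3, numpy 2.4.6, Biopython 1.88 and matplotlib 3.10.9 were used. Alternatives were a 4-fold limit, counting genes at 0 in 1 library, a ratio of FPKM + 1, a 1 FPKM filter, median-ratio scaling, scaling without the most abundant entry AT2G01021 (1.51 to 28.6% of summed FPKM), pseudocounts of 0.1 and 5, and exchanged dark labels.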

Additional observations from a re-analysis of the deposited data

Results flagged for a closer look

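For 3 genes the log2 ratio of FPKM + 1 pointed one way in the dark and the other way in the light, and this difference was not tested, since each condition has 1 library. PDF1.4 was at 0.42 for DEX over EtOH in the dark, by the labels, and at -0.59 in the light. ORA59 was at 0.12 for bri1-116 over Col-0 in the dark and at -0.80 in the light. Its dark value rests on 18 and 6 estimated fragments, so its direction there is not resolved. ERF1 was at 0.22 in the dark and at -0.11 in the light for the same comparison, on a few fragments per library. Under exchanged dark labels the bri1-116 ratios of ORA59 and ERF1 would have the same sign in dark and light.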

How the results depend on the processing

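With a limit of 4-fold in place of 2-fold, the number of the 8 genes apart in bri1-116 against Col-0 was 0 in place of 1 in the dark and 1 in place of 4 in the light, since most of those ratios lie between both limits. The counts in both DAYi comparisons, and all counts under the other alternatives run for counts, stayed within 1.5 times the count reported. Counts were not run with scaling without AT2G01021 or with pseudocounts of 0.1 and 5. A ratio of FPKM + 1 brings in PDF1.2c and drops PDF1.4 in light DAYi. In light bri1-116 it brings in PDF1.2b and drops the lower calls of ORA59 and PDF1.2c. Under the genotype fields in place of the titles, the dark bri1-116 ratio of PDF1.4 reversed to -1.20 on the log2 scale. A log2 ratio was taken as unmoved when it shifted by no more than 1.5-fold. Of the 24 log2 ratios, all 24 were unmoved in this sense by median-ratio scaling and by scaling without AT2G01021. Shifts within that limit were still present. Scaling without AT2G01021 took ORA59 in light bri1-116 from -0.80 to -0.51 and PDF1.3 from -0.50 to -0.16. It took PDF1.4 in light DAYi from -0.59 to -0.39. A pseudocount of 0.1 moved 6 and one of 5 moved 8; for ORA59 in dark DAYi the ratio was 4.53 and 0.97 in place of 2.43. Of the 10 entries named as nearest in profile, 4 were kept with a pseudocount of 5. No paired analysis was possible because there is 1 library per condition. Levels under about 1 FPKM rest on few fragments.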
